A study of Mus musculus with 28 samples.

Results

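The calcium release and reuptake genes of cardiac muscle were followed in left ventricles of young mice after myocardial infarction (MI). They are 10 genes, taken by symbol from the 45318 gene rows of the series: the ryanodine receptors Ryr1, Ryr2 and Ryr3, the pumps Atp2a1 and Atp2a2, the pump inhibitors Pln and Sln, the store proteins Casq1 and Casq2, and the exchanger Slc8a1. Hsd:ICR(CD-1) mice underwent ligation of the left anterior descending coronary artery (MI) or a sham operation on postnatal day 1 or 7, and total RNA was taken from the ventricular wall away from the infarct 3 or 21 days later. The 8 groups are 7d-MI + 3, 7d-SHAM + 3, 1d-MI + 3 and 1d-SHAM + 3 with 4 libraries each, and 7d-MI + 21, 7d-SHAM + 21, 1d-MI + 21 and 1d-SHAM + 21 with 3 libraries each, 28 in all. The mice were of this outbred stock, with no engineered allele named in the labels. The library names carry a number prefix that no group shares with another, so group and prefix cannot be told apart. Since prefixes may mark litters, p-values measure the spread between these libraries.

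At each heartbeat calcium that enters through L-type channels opens RYR2, the ryanodine receptor of the heart, and the sarcoplasmic reticulum empties part of its store into the cytosol. CASQ2 binds calcium inside that store. SERCA2a, a product of Atp2a2, pumps calcium back, phospholamban (Pln) and sarcolipin (Sln) restrain the pump, and the sodium-calcium exchanger of Slc8a1 moves calcium out of the cell. Ryr1, Atp2a1 and Casq1 are the skeletal muscle forms, Ryr3 is a ryanodine receptor found at low level in many tissues, and Sln belongs mainly to the atrium and, in skeletal muscle, to slow and developing fibres.

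Library totals ran between 33077962 and 51942648 counts at 3 days (TruSeq stranded total RNA) and between 40514177 and 168550985 at 21 days (ScriptSeqV2). A level is given in CPM, counts scaled by library total and by TMM within a follow-up. At 21 days ribosomal RNA of nuclear genes took between 0.746% and 78.1% of a library, against at most 0.257% at 3 days. Later mentions of ribosomal RNA mean this nuclear share. Counted with the mitochondrial ribosomal RNA, the share at 3 days ran between 2.90% and 25.8% of a library. Reads per kilobase over 1357 olfactory and vomeronasal receptor genes, which the heart is not known to use, ran between 0.368 and 0.616 in the 7d groups at 3 days, between 1.14 and 3.44 in 1d-MI + 3, and between 0.402 and 1.93 in 1d-SHAM + 3. All 12 ventricular cardiomyocyte markers were detected in each library, with a summed level of at least 16382 CPM. That list also holds genes of heart muscle in general, such as Ttn and Tnnt2, so its sum does not tell ventricle from atrium. The 15 skeletal muscle markers summed to at most 42.3 CPM, most of it Mybpc2 and Neb.

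Of the 10 genes, 7 matched a promoter in the RefSeq table (GRCm38.p6). The 200 bases before the start are shown for the members on which the 3-day results turn, Pln and Casq2, whose response to MI depended on age, and Casq1, which was higher after MI at both ages. Capitals mark 2 motifs searched on both strands, the E-box CANNTG and the GATA motif AGATAA.
Pln (chr10:53337486-53337685, plus strand): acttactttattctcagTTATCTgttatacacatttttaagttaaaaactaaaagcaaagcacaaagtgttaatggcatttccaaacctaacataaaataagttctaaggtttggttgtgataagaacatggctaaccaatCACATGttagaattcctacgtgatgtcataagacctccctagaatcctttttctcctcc
Casq2 (chr3:102086215-102086414, plus strand): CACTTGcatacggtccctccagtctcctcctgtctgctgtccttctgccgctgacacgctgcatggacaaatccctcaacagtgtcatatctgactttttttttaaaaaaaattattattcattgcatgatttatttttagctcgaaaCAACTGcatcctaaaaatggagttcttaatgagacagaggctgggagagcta
Casq1 (chr1:172219896-172220095, minus strand): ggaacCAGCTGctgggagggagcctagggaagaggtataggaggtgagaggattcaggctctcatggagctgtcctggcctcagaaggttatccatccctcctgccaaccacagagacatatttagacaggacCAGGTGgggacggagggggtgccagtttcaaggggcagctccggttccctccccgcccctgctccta

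The GATA motif stands in the Pln window 183 bases before the start, read on the minus strand, and in the Slc8a1 window 68 bases before it. It was found in 7.8% of 32851 promoter windows of that length. An E-box was found in 58.2% of them, and in 6 of the 7 member windows, all but that of Ryr1. The M-CAT motif (CATTCC), MEF2 and CArG had no match in the 7 windows, against 10.1%, 0.414% and 1.18% of all windows. These matches are a description of the letters only.

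Per kilobase of gene length, with the lengths deposited beside the counts, Pln was the highest member in each of the 8 groups. In 7d-MI + 3 the levels per kilobase were 473 ± 65.8 for Pln, 448 ± 44.1 for Slc8a1, 256 ± 34.8 for Casq2, 222 ± 100 for Atp2a2 and 51.1 ± 31.1 for Ryr2, and in 7d-SHAM + 3 they were 1818 ± 270 for Pln, 636 ± 31.6 for Slc8a1, 520 ± 43.5 for Atp2a2, 489 ± 30.1 for Casq2 and 83.6 ± 8.25 for Ryr2 (mean ± SD, n = 4 each). The neighbours Pln and Slc8a1, and Casq2 and Atp2a2, did not differ beyond their spread in 7d-MI + 3. The place of Slc8a1 rests on the length used, 2.934 kb as deposited and 18.807 kb as the union of its exons in GENCODE M21, and with the longer value it falls below Casq2 and Atp2a2 in both of these groups. Casq1 stood at 11.1 ± 2.43 CPM per kilobase in 7d-MI + 3, against 4.99 ± 1.57 in 7d-SHAM + 3. The other members lay below Casq1.

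The first comparison asks what an infarct on day 7 does to these genes 3 days later. The cardiac members were lower in the remote ventricle: 6 of the 9 members tested were called by edgeR's quasi-likelihood test (Benjamini-Hochberg adjusted p under 0.05), against 34.0% of the 20345 genes tested. The 5 lower ones were Pln, Atp2a2, Casq2, Ryr2 and Slc8a1 (14.2% of all genes were called lower), and the higher one was Casq1 (19.8% called higher). The median log2 fold change was -0.51 over the members and 0.08 over all genes. Bulk RNA cannot separate fewer cardiomyocytes from less RNA per cardiomyocyte: in the same comparison 6 of 12 ventricular cardiomyocyte markers were lower and none higher (median -0.42), and 8 of 8 macrophage and leukocyte markers were higher (median 2.2), and their part in the results was not tested.

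Pln, the reversible inhibitor of SERCA2a (ENSMUSG00000038583, chromosome 10, 53337667 to 53345987, GRCm38), measured 1333, 945, 1218 and 1192 CPM in 7d-MI + 3, against 5478, 4424, 4127 and 4005 CPM in 7d-SHAM + 3. Every MI library lay far below every sham library. The log2 fold change was -1.94 (SE 0.19, adjusted p = 3.01e-07), the largest fall among the members.

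Atp2a2 encodes the SERCA2 pump, whose SERCA2a form refills the cardiac store (ENSMUSG00000029467, chromosome 5, 122453513 to 122502225). Its levels were 1199, 941, 2252 and 1010 CPM in 7d-MI + 3, against 3528, 2944, 2996 and 3185 CPM in 7d-SHAM + 3. The groups did not overlap, although replicate 3 of 7d-MI + 3 stood well above the other MI libraries. The log2 fold change was -1.23 (SE 0.24, adjusted p = 4.42e-04). Gm43361, annotated on the opposite strand of the same locus, measured between 202 and 372 CPM in 7d-MI + 3 and between 769 and 858 CPM in 7d-SHAM + 3. The strand setting of the counting is not given in the sources used here, so reads of the pair may not be separated.

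Casq2, the calcium buffer of the cardiac store (ENSMUSG00000027861, chromosome 3, 102086415 to 102146514), measured 810, 625, 617 and 752 CPM in 7d-MI + 3, against 1348, 1407, 1372 and 1219 CPM in 7d-SHAM + 3. All MI libraries lay below all shams. The log2 fold change was -0.93 (SE 0.15, adjusted p = 4.85e-05).

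Ryr2, the cardiac release channel (ENSMUSG00000021313, chromosome 13, 11553102 to 12106945), measured 617, 607, 1648 and 575 CPM in 7d-MI + 3, against 1608, 1291, 1341 and 1398 CPM in 7d-SHAM + 3. Replicate 3 of 7d-MI + 3 was the highest library of both groups, so the groups overlapped. The log2 fold change of -0.71 (SE 0.26, adjusted p = 0.044) became -1.23 without that library, and leaving out any other library of the pair raised the adjusted p above 0.05. The same library was also high in Ttn (42055 CPM, against 14921 to 17374 CPM in the other 7d-MI + 3 libraries) and Myh6 (11889 CPM, against 4663 to 6021 CPM). It was not high in Pln, Casq2 or Tnnt2.

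Slc8a1, the exchanger of the surface membrane (ENSMUSG00000054640, chromosome 17, 81373105 to 81738377), measured 1275, 1348, 1165 and 1473 CPM in 7d-MI + 3, against 1806, 1969, 1919 and 1772 CPM in 7d-SHAM + 3. The groups did not overlap, and the log2 fold change was -0.51 (SE 0.17, adjusted p = 0.023), the smallest of the called falls. Leaving out any of 5 libraries (replicates 1 to 3 of 7d-MI + 3, replicates 2 and 3 of 7d-SHAM + 3) raised the adjusted p above 0.05, to 0.072 at most. Slc8a1 also gives rise to an abundant circular transcript, and gene counts do not tell circular from linear reads.

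Casq1, the skeletal muscle calsequestrin (ENSMUSG00000007122, chromosome 1, 172209894 to 172219868), went the other way. It measured 24.6, 26.9, 18.1 and 17.3 CPM in 7d-MI + 3, against 6.93, 7.24, 12.5 and 12.2 CPM in 7d-SHAM + 3, with no overlap (log2 fold change 1.16, SE 0.31, adjusted p = 0.0074). Casq1 stayed far below Casq2 in both groups. Skeletal muscle markers summed to between 28.1 and 42.3 CPM in 7d-MI + 3 and between 21.6 and 28.6 CPM in 7d-SHAM + 3, and the fast myosin genes Myh1, Myh2 and Myh4 reached at most 3.24 CPM in any library. The part of other muscle in the Casq1 result was not tested.

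The members at trace level were not called in this comparison. Ryr1 had 8, 9, 4 and 8 counts in 7d-MI + 3, against no count in any library of 7d-SHAM + 3, and Atp2a1 had 10, 6, 5 and 14 counts, against 0, 0, 5 and 3. The receptor-gene background would give 7.49 to 9.47 counts over the length of Ryr1 in 7d-MI + 3 and 5.66 to 7.10 counts in 7d-SHAM + 3, where none was seen, so it is no exact guide to single genes. Sln had no count in 7d-MI + 3 and 12 counts in 1 library of 7d-SHAM + 3, and was not tested.

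**Figure D1:**
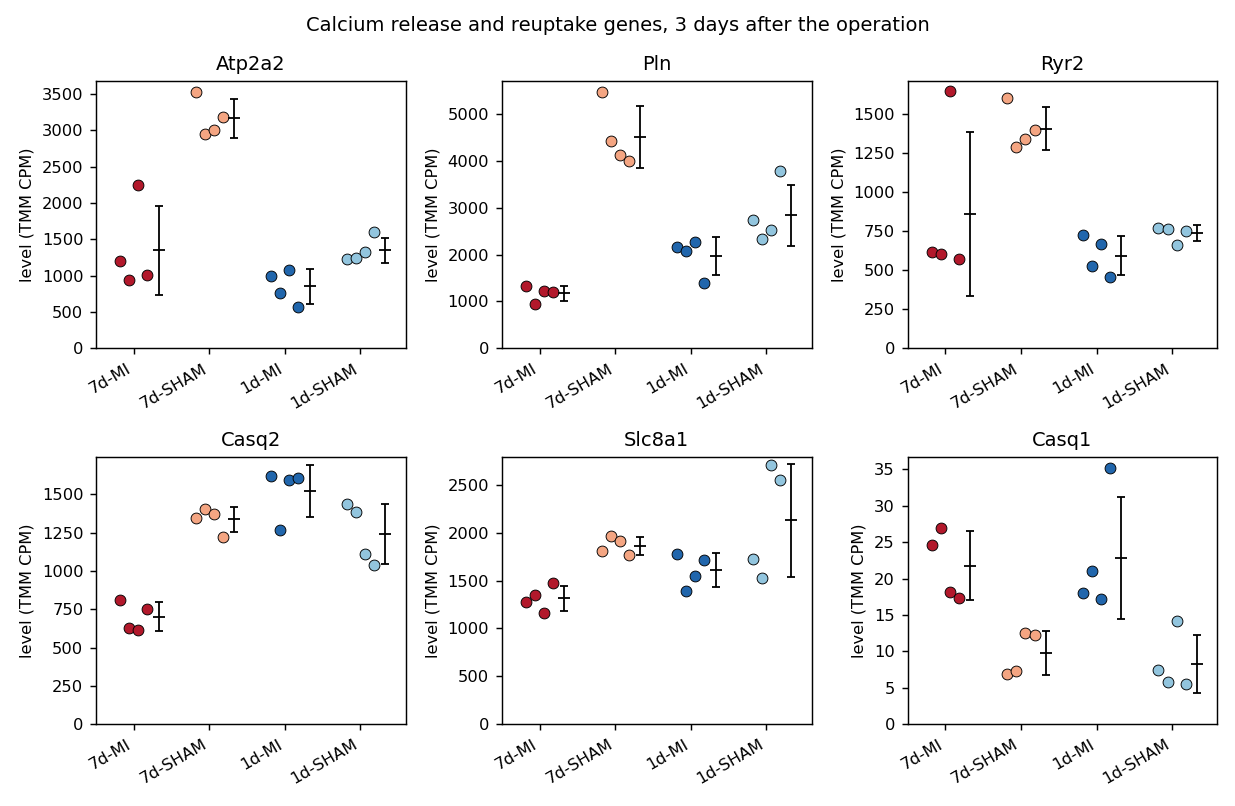
Levels in TMM CPM (y axis, starting at 0) of 6 members in the 4 groups at 3 days, each point 1 library, with mean and SD beside them (n = 4). Pln, Atp2a2, Casq2 and Slc8a1 of 7d-MI + 3 lie wholly below 7d-SHAM + 3, Ryr2 does so except for 1 library at 1648 CPM, and Casq1 lies above.

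The second comparison asks the same of an infarct on day 1, an age at which the mouse heart is known to regenerate. In 1d-MI + 3 against 1d-SHAM + 3 the test called 2 of the 9 members tested, both higher, Casq1 and Ryr3, against 8.46% of all genes (4.10% called higher, 4.36% called lower). None of the cardiac members was called by edgeR, while 7 of the 9 members had an unadjusted p under 0.05, as had 5581 of the 20345 genes tested. Ryr1 and Atp2a1 are among the 7. Both passed the filter on low counts only through groups operated on day 1, so they are no support in that count. DESeq2 called 3 members and limma-voom 4, with no share over all genes given for either tool. Here 3 of 12 ventricular markers were lower and 4 of 8 macrophage and leukocyte markers higher.

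Atp2a2 measured 998, 762, 1079 and 564 CPM in 1d-MI + 3, against 1233, 1248, 1319 and 1598 CPM in 1d-SHAM + 3, and Pln measured 2156, 2072, 2270 and 1388 CPM, against 2741, 2325, 2517 and 3787 CPM. In both genes every MI library lay below every sham library. On the log2 scale Atp2a2 stood at -0.67 (SE 0.24, adjusted p = 0.079) and Pln at -0.53 (SE 0.18, adjusted p = 0.074), and neither passed. Atp2a2 passed with limma-voom (adjusted p = 0.048), without a filter (adjusted p = 0.019) and without replicate 3 of 1d-MI + 3 (adjusted p = 0.035). Pln passed without replicate 2 of 1d-SHAM + 3 (adjusted p = 0.037), without replicate 3 of 1d-MI + 3 (adjusted p = 0.038) and with only replicates 3 and 4 of 1d-SHAM + 3, which share a name prefix (adjusted p = 0.024).

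Casq2 measured 1623, 1270, 1595 and 1604 CPM in 1d-MI + 3, against 1436, 1387, 1112 and 1040 CPM in 1d-SHAM + 3 (log2 fold change 0.29, SE 0.14, adjusted p = 0.19). Its groups overlapped, and 3 of the 4 MI libraries stood above every sham. With only replicates 3 and 4 of the shams the value was 0.51 and passed (adjusted p = 0.040). Ryr2 stood at -0.31 on the log2 scale (SE 0.26, adjusted p = 0.44) and its groups overlapped. Slc8a1 measured 1784, 1392, 1545 and 1718 CPM in 1d-MI + 3, against 1729, 1530, 2710 and 2554 CPM in 1d-SHAM + 3 (log2 fold change -0.40, SE 0.17, adjusted p = 0.13), where shams 3 and 4 stood above shams 1 and 2. With only replicates 3 and 4 of the shams the value was -0.71 (adjusted p = 0.0047), and without replicate 2 it was -0.54 (adjusted p = 0.034).

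Casq1 measured 17.9, 21.0, 17.1 and 35.2 CPM in 1d-MI + 3, against 7.38, 5.84, 14.2 and 5.56 CPM in 1d-SHAM + 3 (log2 fold change 1.47, SE 0.31, adjusted p = 0.011). The groups did not overlap. With the 2 groups fitted alone its adjusted p was 0.054, and with only replicates 3 and 4 of the shams it was 0.060. Gm17224, on the opposite strand of Casq1, reached between 1.19 and 3.20 CPM in 1d-MI + 3 and between 0.338 and 0.842 CPM in 1d-SHAM + 3.

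Ryr3 (ENSMUSG00000057378, chromosome 2, 112631355 to 113217096) had 338, 292, 217 and 298 counts in 1d-MI + 3, against 67, 137, 26 and 14 counts in 1d-SHAM + 3. The receptor-gene background would give 20.2 to 60.8 counts over its length in 1d-MI + 3 and 7.11 to 34.2 in 1d-SHAM + 3, below the counts of every library. Its log2 fold change was 2.11 (SE 0.47, adjusted p = 0.012), and the call was lost with replicates 1 and 2 of the shams alone (1.44, adjusted p = 0.067) and with the 2 groups fitted alone (adjusted p = 0.053). In 7d-MI + 3 it had 58, 109, 66 and 132 counts, against 38, 22, 22 and 53 counts in 7d-SHAM + 3 (log2 fold change 0.88, SE 0.48, adjusted p = 0.17).

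**Figure D2:**
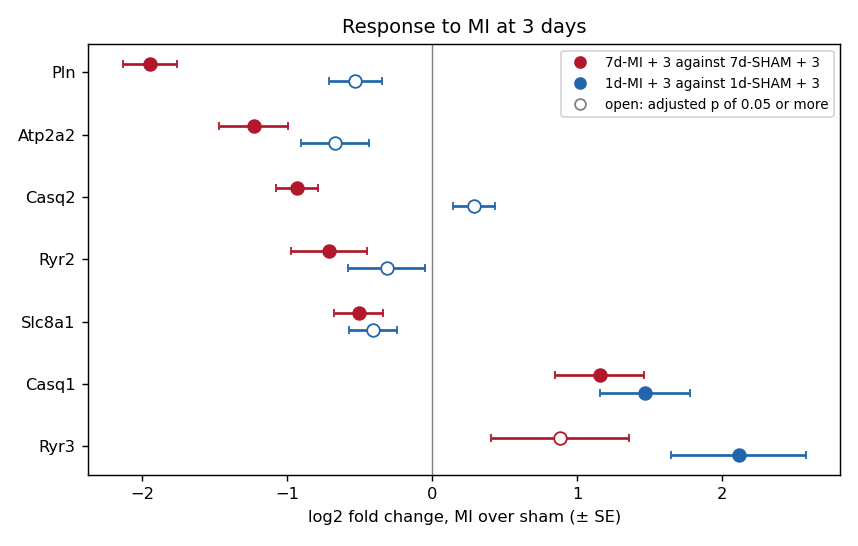
Log2 fold change of MI over sham with its SE (x axis) for 7 members at 3 days, in mice operated on day 7 and on day 1, with filled points called and open points not called. Pln and Casq2 stand apart between the ages, at -1.94 and -0.53 for Pln and at -0.93 and 0.29 for Casq2, while the values of Slc8a1 and Casq1 lie closer together.

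Whether the response itself differed with age was tested as the difference of both MI effects. It was called for 2 of 9 members, both lower, against 13.1% of all genes (9.01% called higher, 4.07% called lower). Pln had a difference of -1.42 on the log2 scale (SE 0.26, adjusted p = 0.0016) and Casq2 of -1.22 (SE 0.20, adjusted p = 8.66e-04), and both calls held under every alternative run. For Atp2a2 the difference was -0.56 (SE 0.33, adjusted p = 0.29) and for Ryr2 -0.40 (SE 0.37, adjusted p = 0.54). Without replicate 3 of 7d-MI + 3 these became -0.91 (adjusted p = 0.023) and -0.90 (adjusted p = 0.0090), and both passed. Casq1 had a difference of -0.31 with a 95% interval of -1.16 to 0.53, and Slc8a1 of -0.10 with an interval of -0.56 to 0.36, which turned positive with other day 1 shams.

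Between the infarcted groups, 7d-MI + 3 against 1d-MI + 3, 6 of 9 members were called, 5 lower and 1 higher (43.0% of all genes were called, 23.5% lower and 19.4% higher). These comparisons share their libraries with the ones above. Casq2 was lower (log2 fold change -1.12, SE 0.15, adjusted p = 1.03e-05), with no overlap between the 4 values of 617 to 810 CPM in 7d-MI + 3 and the 4 values of 1270 to 1623 CPM in 1d-MI + 3. Pln was lower as well (-0.75, SE 0.18, adjusted p = 0.0031). Atp2a2 was higher (0.67, SE 0.24, adjusted p = 0.028), but its groups overlapped, and without replicate 3 of 7d-MI + 3 the value was 0.31 (adjusted p = 0.18). The Atp2a2 call was lost in 8 of 18 alternatives, among them RLE scaling (adjusted p = 0.054) and upper-quartile scaling (adjusted p = 0.15). Slc8a1 had -0.29 (SE 0.17, adjusted p = 0.16), and was called lower in 3 of 18 alternatives.

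The remaining lower members were those at trace level. Ryr1, the skeletal muscle release channel (ENSMUSG00000030592, chromosome 7, 29003344 to 29125179), had 8, 9, 4 and 8 counts in 7d-MI + 3, against 354, 486, 86 and 186 counts in 1d-MI + 3. The receptor-gene background would give 37.5, 52.8, 17.5 and 26.2 counts over its length in 1d-MI + 3, below the counts seen in each library. The Ryr1 counts of these libraries stood in the same order as that background. Atp2a1, the skeletal muscle pump (ENSMUSG00000030730, chromosome 7, 126445858 to 126463108), had 10, 6, 5 and 14 counts in 7d-MI + 3, against 93, 121, 29 and 51 counts in 1d-MI + 3. Its 1d-MI + 3 counts stood in the order of the background too. Only in 1d-MI + 3 did Ryr1 exceed 10 counts in all 4 libraries at 3 days. It passed the filter on low counts through the group where it is high, so its lower call had to follow and is no support, here or in the count of 6. Atp2a1 exceeded 10 counts in all 4 libraries only in the groups operated on day 1, where it is high. Its lower call is therefore no support either, here or in the count of 6. On the log2 scale the difference was -3.11 for Atp2a1 (SE 0.70, adjusted p = 0.0017) and -1.66 for Ryr3 (SE 0.46, adjusted p = 0.0074). At most 10.9 CPM was reached by any of these genes in a library.

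The shams show how the genes differ between hearts of the 2 ages without infarction. In 7d-SHAM + 3 against 1d-SHAM + 3 the test called 5 of 9 members, 3 higher and 2 lower, against 20.3% of all genes (8.12% higher and 12.2% lower). The higher ones were Atp2a2 (1.23, SE 0.24, adjusted p = 0.0013), Ryr2 (0.93, SE 0.26, adjusted p = 0.020) and Pln (0.67, SE 0.18, adjusted p = 0.016), each with no overlap between groups. Atp2a2 averaged 3163 ± 264 CPM in 7d-SHAM + 3, against 1350 ± 170 CPM in 1d-SHAM + 3, and Ryr2 averaged 1409 ± 139 CPM in 7d-SHAM + 3, against 739 ± 49.8 CPM in 1d-SHAM + 3 (SD, n = 4 each). Casq2 averaged 1337 ± 82.3 CPM in 7d-SHAM + 3, against 1244 ± 197 CPM in 1d-SHAM + 3, and Slc8a1 averaged 1867 ± 92.7 CPM in 7d-SHAM + 3, against 2131 ± 588 CPM in 1d-SHAM + 3, with overlap in both genes. Of the ventricular markers, 5 of 12 were higher and 1 lower in the same comparison.

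The sham libraries of day 1 fall into 2 name prefixes that differed in background. With replicates 3 and 4 only, Pln (0.52, adjusted p = 0.18) and Ryr2 (0.99, adjusted p = 0.17) were no longer called, while Atp2a2 remained. The 2 lower members were Ryr1 and Atp2a1. Both passed the filter on low counts only through groups operated on day 1, so their lower calls are no support, here or in the count of 5. Ryr1 had no count in the 4 libraries of 7d-SHAM + 3, and 73, 110, 2 and 0 counts in 1d-SHAM + 3. Atp2a1 had 0, 0, 5 and 3 counts in 7d-SHAM + 3, against 18, 22, 15 and 13 counts in 1d-SHAM + 3 (log2 fold change -2.77, SE 0.78, adjusted p = 0.018). The background would give 6.18 to 29.7 counts of Ryr1 and 1.40 to 6.74 counts of Atp2a1 in 1d-SHAM + 3. It was highest in replicates 1 and 2, which also had the most counts of both genes. Neither gene was called with replicates 3 and 4 of the shams only.

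Ratios of counts within a library do not depend on scaling, and 7 of them were compared over 4 pairs of groups at each follow-up by a two-sided exact permutation test. With 4 libraries against 4 the smallest p that such a test allows is 0.029. At 3 days many ratios stood at that p, with no overlap between their groups. Tied there, they adjusted to 0.050 over the 28 tests, a value set by the number of ties. No adjusted p fell under 0.05 at either follow-up, so no ratio was called.

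The ratio of Pln to Atp2a2, inhibitor to pump, was 1.11, 1.00, 0.541 and 1.18 in 7d-MI + 3, against 1.55, 1.503, 1.38 and 1.26 in 7d-SHAM + 3. All MI libraries lay below the shams, with a mean log2 difference of -0.63 (exact p = 0.029, adjusted p = 0.050). In 1d-MI + 3 the ratio was 2.16, 2.72, 2.10 and 2.46, against 2.22, 1.86, 1.91 and 2.37 in 1d-SHAM + 3, which overlapped (difference 0.18, exact p = 0.20, adjusted p = 0.24). At 3 days every library operated on day 7 had a lower ratio than every library operated on day 1. The log2 difference, day 7 minus day 1, was -1.35 for the infarcted groups and -0.55 for the shams (exact p = 0.029, adjusted p = 0.050 for each).

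For Casq2 to Ryr2, buffer to channel, every MI library of day 1 stood above every sham: the ratio was 2.23, 2.42, 2.37 and 3.52 in 1d-MI + 3, against 1.86, 1.81, 1.67 and 1.38 in 1d-SHAM + 3 (difference 0.63 on the log2 scale, exact p = 0.029, adjusted p = 0.050). In 7d-MI + 3 it was 1.31, 1.03, 0.375 and 1.31, against 0.839, 1.09, 1.02 and 0.872 in 7d-SHAM + 3 (difference -0.07, exact p = 0.97, adjusted p = 0.97), and the difference became 0.35 without replicate 3 of 7d-MI + 3. Ryr2 to Atp2a2 was 0.514, 0.645, 0.732 and 0.570 in 7d-MI + 3, against 0.456, 0.439, 0.447 and 0.439 in 7d-SHAM + 3. The shams were nearly identical and all MI libraries lay above them (difference 0.45, exact p = 0.029, adjusted p = 0.050). Slc8a1 to Atp2a2 was 1.06, 1.43, 0.517 and 1.46 in 7d-MI + 3, against 0.512, 0.669, 0.641 and 0.557 in 7d-SHAM + 3 (difference 0.81, exact p = 0.11, adjusted p = 0.15), with replicate 3 of 7d-MI + 3 among the shams.

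**Figure D3:**
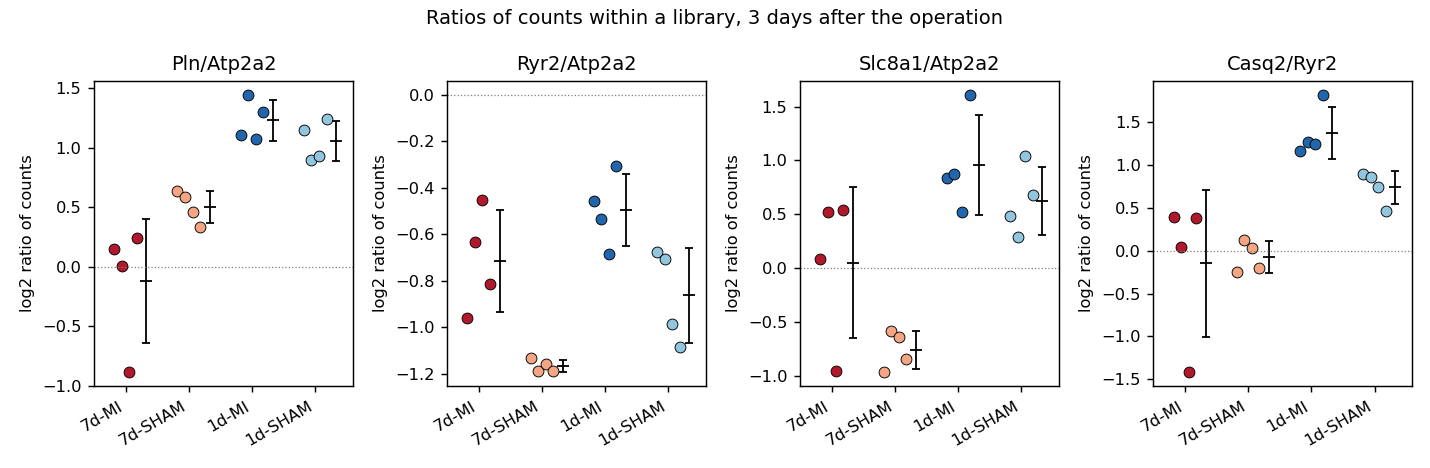
Log2 ratio of counts of 2 members within a library (y axis) for 4 ratios at 3 days, each point 1 library, with mean and SD (n = 4), and the dotted line at equal counts. Pln/Atp2a2 averages -0.12 in 7d-MI + 3, 0.50 in 7d-SHAM + 3, 1.23 in 1d-MI + 3 and 1.06 in 1d-SHAM + 3.

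Other genes of calcium handling were read from 6 lists with 59 genes. In 7d-MI + 3 against 7d-SHAM + 3, 15 were higher and 15 lower, against 19.8% and 14.2% of all genes (median log2 fold change -0.11, against 0.08 over all genes). The lists are small, and nothing particular to one is read from its count. Among 14 partners of the release channel 5 were lower and 4 higher. The lower ones included Trdn, which anchors calsequestrin to the channel (-1.60, SE 0.18, adjusted p = 1.77e-06), S100a1, a calcium sensor that binds channel and pump (-0.88, SE 0.15, adjusted p = 8.49e-05), and Jph2, which holds the store membrane to the surface tubules (-0.80, SE 0.19, adjusted p = 0.0025). The higher ones included the inositol trisphosphate receptors Itpr1 (0.48, SE 0.13, adjusted p = 0.0062), Itpr2 (0.56, SE 0.13, adjusted p = 0.0028) and Itpr3 (0.78, SE 0.19, adjusted p = 0.0025), release channels of many cell types.

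Of 7 L-type and T-type channel genes 3 were lower and 1 higher: the pore of the cardiac L-type channel, Cacna1c, stood at -0.79 on the log2 scale (SE 0.19, adjusted p = 0.0032) and Cacna1d, a pore of pacemaker and atrial cells, at 1.09 (SE 0.26, adjusted p = 0.0023). Among 7 other pumps and exchangers the surface pumps Atp2b1 (0.75, SE 0.18, adjusted p = 0.0027) and Atp2b4 (1.06, SE 0.26, adjusted p = 0.0044) were higher and none was lower. Of 11 genes of store refill and luminal buffering 5 were higher and none lower, among them Calr, the luminal buffer calreticulin (0.73, SE 0.19, adjusted p = 0.0043), and Orai2, a store-operated channel (2.36, SE 0.45, adjusted p = 4.64e-04). In the mitochondrial uptake list 4 of 8 were lower and 2 higher, Mcu, the pore, at 0.50 (SE 0.14, adjusted p = 0.011) and Mcub, its inhibitory paralogue, at 2.50 (SE 0.61, adjusted p = 0.0030).

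After MI on day 1, 2 of the 59 genes were called, against 8.46% of all genes: Cacna1d (0.84, SE 0.25, adjusted p = 0.047) and Atp2b2, a surface pump (2.07, SE 0.62, adjusted p = 0.046), both higher. The difference of the MI effects was called for 11 of them, 8 higher and 3 lower, against 9.01% of all genes called higher and 4.07% called lower. The higher ones included Itpr1 (0.74, SE 0.18, adjusted p = 0.011), Itpr2 (0.84, SE 0.19, adjusted p = 0.0066), Calr (1.13, SE 0.26, adjusted p = 0.0085), Rcn1, Rcn3, Stim2 and Atp2b1. The lower ones were Trdn (-1.18, SE 0.25, adjusted p = 0.0046), S100a1 (-1.34, SE 0.20, adjusted p = 5.51e-04) and Camk2b, a calcium-dependent kinase (-1.73, SE 0.40, adjusted p = 0.0077). At 21 days edgeR called none of the 59 genes in the 5 comparisons within that follow-up. In the order of the next paragraph, 11, 9, 4, 0 and 2 of them had an unadjusted p under 0.05. DESeq2 called 3, 2, 0, 0 and 0, and limma-voom called 0 in each, with no share over all genes given for either tool.

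At 21 days no member was called by edgeR in any of the 5 comparisons. All 10 members were tested. Of all 24646 genes, 0% were called in 7d-MI + 21 against 7d-SHAM + 21, 0.0162% in 1d-MI + 21 against 1d-SHAM + 21, 0.0325% in 7d-MI + 21 against 1d-MI + 21, 0% in 7d-SHAM + 21 against 1d-SHAM + 21 and 0% for the difference of the MI effect. Members with an unadjusted p under 0.05 numbered 3, 2, 1, 1 and 2 in these comparisons, against 4111, 3599, 1606, 442 and 927 of all genes. DESeq2 called 2, 1 and 1 members in the first 3 and 0 in the others, and limma-voom called 0 in each. The shares above are those of edgeR, so these counts have no share over all genes beside them. Libraries of a group varied more at 21 days, with a biological coefficient of variation of 0.567, against 0.331 at 3 days.

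Pln measured 1707, 4012 and 3129 CPM in 7d-MI + 21, against 3529, 9021 and 6518 CPM in 7d-SHAM + 21, and the groups overlapped through 1 sham library. The log2 fold change was -1.11 (SE 0.46, adjusted p = 0.27), with DESeq2 -1.22 (adjusted p = 0.046), and without replicate 1 of 7d-SHAM + 21 it was -1.36 (adjusted p = 0.041). In 1d-MI + 21 Pln measured 3689, 3918 and 4242 CPM, against 6294, 5315 and 7040 CPM in 1d-SHAM + 21 with no overlap (log2 fold change -0.65, SE 0.46, adjusted p = 0.48). Its log2 fold change for 7d-MI + 21 over 1d-MI + 21 was -0.42 (SE 0.46, adjusted p = 0.94). The ratio of Pln to Atp2a2 was 0.715, 1.65 and 1.24 in 7d-MI + 21, against 1.13, 2.75 and 3.14 in 7d-SHAM + 21, which overlapped (exact p = 0.30, adjusted p = 0.70). It was 1.00, 1.56 and 1.36 in 1d-MI + 21, against 1.9597, 2.49 and 2.81 in 1d-SHAM + 21. No overlap was seen there, at the smallest p that 3 against 3 allow (exact p = 0.10, adjusted p = 0.47).

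Atp2a2, Ryr2, Casq2 and Slc8a1 stood close to their shams at 21 days. Their 8 log2 fold changes of MI over sham lay between -0.21 and 0.25 with SE of 0.33 to 0.38 (adjusted p of 0.76 to 0.99), and differences of that size were not detectable at this spread. The mean CPM of Atp2a2 was 2448 ± 76.4 in 7d-MI + 21, against 2828 ± 656 in 7d-SHAM + 21. After surgery on day 1 it was 3102 ± 583 in 1d-MI + 21, against 2617 ± 547 in 1d-SHAM + 21 (SD, n = 3 each). The mean CPM of Casq2 was 272 ± 75.2 in 7d-MI + 21, against 267 ± 66.3 in 7d-SHAM + 21. After surgery on day 1 it was 272 ± 74.1 in 1d-MI + 21, against 268 ± 37.8 in 1d-SHAM + 21.

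Casq1 measured 384, 310 and 94.5 CPM in 1d-MI + 21, against 59.1, 57.6 and 41.6 CPM in 1d-SHAM + 21. The groups did not overlap. The ratio of Casq1 to Casq2 was 1.11, 1.58 and 0.343 in 1d-MI + 21, against 0.213, 0.255 and 0.139 in 1d-SHAM + 21 (exact p = 0.10, adjusted p = 0.47), so Casq1 had more counts than Casq2 in 2 of the MI libraries. The log2 fold change was 2.32 (SE 0.53, adjusted p = 0.23), with DESeq2 2.19 (adjusted p = 0.0039) and with the 2 groups alone 2.26 (adjusted p = 0.032). In 7d-MI + 21 it measured 78.5, 53.4 and 104 CPM, against 77.4, 21.8 and 48.8 CPM in 7d-SHAM + 21 (0.67, SE 0.50, adjusted p = 0.49). Set against 1d-MI + 21, Casq1 of 7d-MI + 21 had a value of -1.74 (SE 0.52, adjusted p = 0.40), with DESeq2 -1.77 (adjusted p = 0.030). Gm17224, opposite Casq1, followed with 27.3, 21.3 and 7.39 CPM in 1d-MI + 21, against 2.77, 3.67 and 2.72 CPM in 1d-SHAM + 21. Skeletal muscle markers summed to 20.3, 15.2 and 17.0 CPM in 1d-MI + 21 and 14.04, 16.8 and 19.5 CPM in 1d-SHAM + 21. The part of other muscle in these Casq1 values was not tested.

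**Figure D4:**
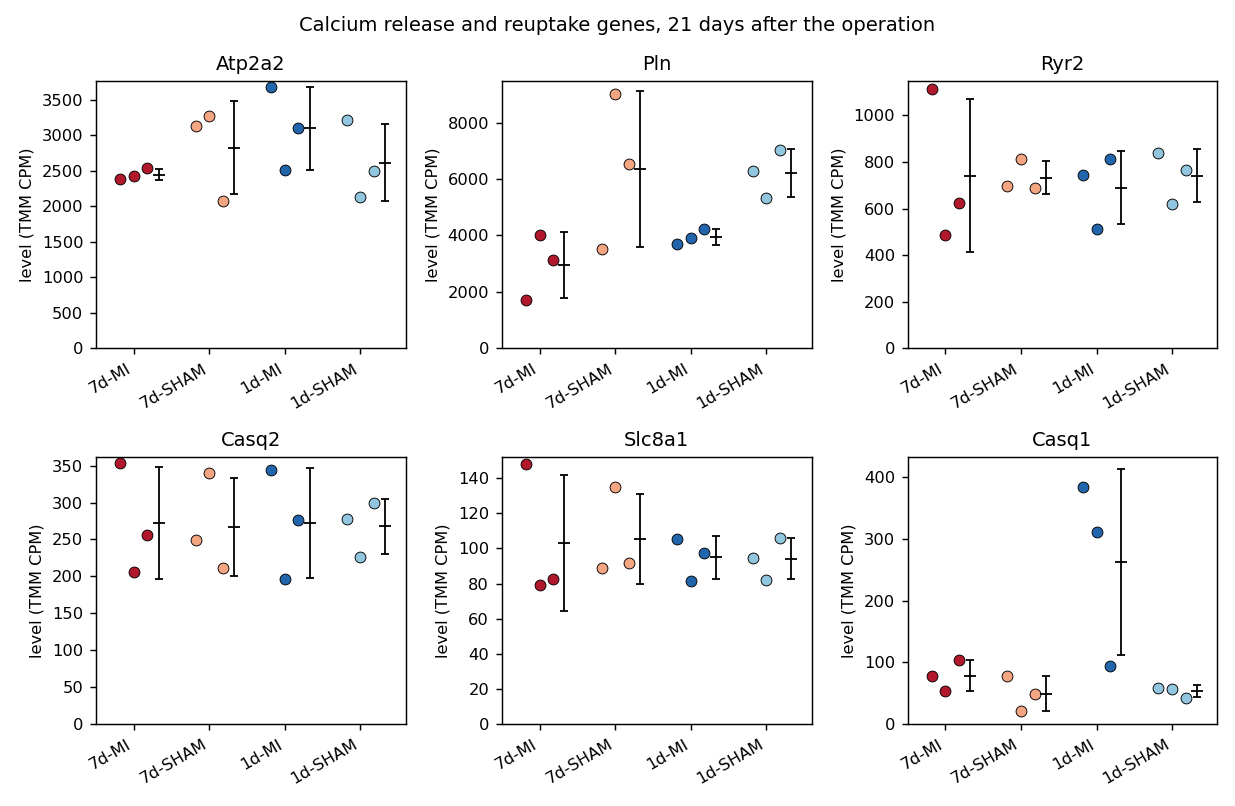
Levels in TMM CPM (y axis, starting at 0) of 6 members in the 4 groups at 21 days, each point 1 library, with mean and SD (n = 3). In Casq1, 2 libraries of 1d-MI + 21 lie above all others, at 384 and 310 CPM, and Pln of each MI group averages below its shams with overlap in the groups operated on day 7.

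Sln, the sarcolipin gene (ENSMUSG00000042045, chromosome 9, 53850164 to 53854560), was not tested at 3 days, where no library had more than 20 counts. At 21 days it measured 5.22, 49.7 and 32.9 CPM in 7d-MI + 21, against 0, 0.143 and 1.42 CPM in 7d-SHAM + 21, with no overlap (log2 fold change 6.13, SE 2.13, adjusted p = 0.25). With 1 library left out the value lay between 5.44 and 8.95, the highest without replicate 3 of 7d-SHAM + 21, and it was never called. In 1d-MI + 21 it measured 0, 20.8 and 6.03 CPM, against 15.4, 1.45 and 4.72 CPM in 1d-SHAM + 21, and these groups overlapped.

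Of the 9 atrial markers, 2 myosin light chains are set beside Sln by library, and Sln moved with them. Myl7 measured 13.4, 75.7 and 44.6 CPM in 7d-MI + 21, against 0.021, 0.734 and 4.44 CPM in 7d-SHAM + 21, and 0.131, 45.0 and 16.2 CPM in 1d-MI + 21, against 34.8, 4.35 and 6.39 CPM in 1d-SHAM + 21. Myl4 measured 77.4, 547 and 408 CPM in 7d-MI + 21, against 2.88, 2.203 and 9.10 CPM in 7d-SHAM + 21. The 4 libraries with the most Sln were also the 4 with the most Myl7, and the libraries without Sln counts were those with the least. All 9 atrial markers together summed to between 2564 and 5336 CPM in 7d-MI + 21 and between 342 and 1143 CPM in 7d-SHAM + 21, much of it Nppa, which a loaded ventricle also makes. By library this sum did not follow Sln throughout. It was 5336, 2887 and 2564 CPM in 7d-MI + 21, highest where Sln was lowest. Nppa alone measured 4422, 1857 and 1657 CPM there, so it did not move with Sln in that group. In 1d-MI + 21 the sum was 764, 1658 and 1584 CPM, lowest where Sln had no count. The remaining atrial markers are not given by library. The part of atrial tissue in the Sln values was not tested.

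**Figure D5:**
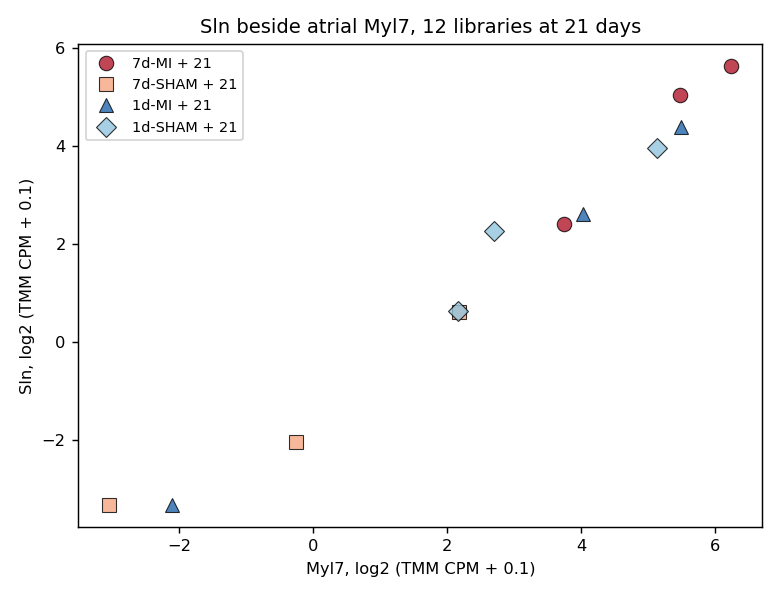
Sln (y axis) against the atrial light chain Myl7 (x axis) in the 12 libraries at 21 days, both as log2 of TMM CPM plus 0.1, with 1 symbol for each group. The points rise together, with 2 of the 3 7d-MI + 21 libraries at the top, at 49.7 and 32.9 CPM of Sln, and libraries without Sln counts at the lower left.

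The other low members stayed low at 21 days. Ryr1 reached at most 5.42 CPM, Ryr3 at most 7.06 CPM and Atp2a1 at most 2.26 CPM, each in replicate 3 of 7d-SHAM + 21. That library had 122, 159 and 51 counts of them, while the receptor-gene background would give 88.9, 102 and 20.1 counts over their lengths.

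Whether the MI effect changed between follow-ups was tested in 1 fit of all 28 libraries. Kit and instrument differ with the follow-up, so a change over time and one of the method cannot be told apart. For mice operated on day 7 the test called 1 of 10 members, against 5.03% of 26250 genes, and for mice operated on day 1 it called 1, against 7.79%. The called members were Ryr1 for day 7, with 0 members called once the background was subtracted, and Ryr3 for day 1, both at trace level. The Ryr1 call was lost in 17 of 24 alternatives and the Ryr3 call in 4 of 26. For day 7 the differences, + 21 minus + 3, were 0.91 for Pln (SE 0.43, adjusted p = 0.20), 1.09 for Atp2a2 (SE 0.41, adjusted p = 0.11) and 1.03 for Casq2 (SE 0.35, adjusted p = 0.076), and none was called. For day 1 Casq1 had a difference of 1.08 (SE 0.58, adjusted p = 0.21).

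Slc8a1 averaged 94.2 ± 11.8 CPM in 1d-SHAM + 21 (SD, n = 3), against 2131 ± 588 CPM in 1d-SHAM + 3 (SD, n = 4), and Casq1 averaged 52.8 ± 9.71 CPM in 1d-SHAM + 21, against 8.24 ± 4.04 CPM in 1d-SHAM + 3. These values were scaled apart and no test was made of them.

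Across the 28 libraries, as deviations from the mean of each follow-up, the members did not move as 1 group. Ryr2 and Atp2a2 were the closest pair of cardiac members (Pearson r = 0.86), Pln with Atp2a2 had r = 0.57, Casq2 with Slc8a1 r = 0.56 and Casq2 with Atp2a2 r = 0.072, all as descriptions over libraries that share groups and depth. Among 7492 genes the nearest to Ryr2 were Cmya5 (r = 0.93), Fyco1 and Jmy, and the nearest to Atp2a2 were March6 (r = 0.94), Lrtm1 and Kcnd2. Those nearest to Pln were mt-Co1 (r = 0.95), Ndufa1 and Cd36, those nearest to Casq2 were Hspa9 (r = 0.84), Psma4 and Ndufs1, and those nearest to Casq1 were Tgm2 (r = 0.86), Qsox1 and Adamtsl5. Slc8a1 was nearest to Zfp24 (r = 0.81), Kat2b and Pogk, and Sln to Dkk3 (r = 0.62), Mfap4 and Tcf21, where Myl7, low at 3 days, was not among the genes searched. Ryr1, Ryr3 and Atp2a1 shared Sfi1 as their nearest gene (r = 0.90, 0.77 and 0.85).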

How the data were processed

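Per the labels, total RNA of remote left ventricle was sequenced in 28 libraries with paired reads, of unlike kit and length at 3 and 21 days. The authors deposited for each gene a count, a CPM (count over the file total), an RPKM (CPM per kilobase), with log2 columns of both, and only the counts were tested. The notes of the submitters name TopHat2 2.0.11, Bowtie2 2.2.2, Cufflinks 2.2.1 and build GRCm38. How reads were counted, and with what strand setting, is not given in the sources used here. The 2 libraries deposited as 2 lanes were summed. No pair of libraries in a group was a duplicate (chi-square per degree of freedom of at least 12.5).

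Genes were kept by filterByExpr at a count of 10 and a total of 15, TMM-scaled and fitted across all genes by quasi-likelihood in edgeR 4.0.16 (R 4.3.3), apart at each follow-up, with Benjamini-Hochberg adjustment over all genes tested. SE was taken as the size of the log2 fold change divided by the root of F. Ratios used counts plus 0.5 and exact permutation tests (scipy 1.17.1). Neighbours were the 3 genes of highest Pearson r of log2 (CPM + 1), among genes of at least 5 CPM on average at both follow-ups and no predicted symbol. All 10 members were named, and of the other calcium genes only called ones, with some results not reported here. The members and lists were chosen with earlier results of these data known. The fit was also tested on simulated data.

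Alternatives were other scalings (RLE, upper quartile, TMM with the top 20 genes left out), other filters (none, or a mean count of 50), DESeq2 1.42.0, limma-voom (limma 3.58.1), the 2 groups alone, the animal number as a block, a pseudocount of 5 for ratios and each library left out. Chosen after seeing the data were background subtraction, the shams of a single name prefix in 1d-SHAM + 3, leaving out libraries over 50% ribosomal RNA, and adding the counts of overlapping genes.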

Additional observations from a re-analysis of the deposited data

Results flagged for a closer look

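Of 32 groups of 4 libraries with enough counts of a member, 2 held a library far from the rest, where chance gives about 1 in 20. Ryr2 measured 1648 CPM in replicate 3 of 7d-MI + 3, above the other 3 libraries, and Casq2 measured 1270 CPM in replicate 2 of 1d-MI + 3, below the other 3. The MI effect at 3 days differed between the ages by -1.42 on the log2 scale for Pln and by -1.22 for Casq2, both called by edgeR. Between follow-ups the MI effect of day 7 differed by -9.15 for Ryr1 (+ 21 minus + 3), a fitted value that is no bound because 7d-SHAM + 3 had no count, and the MI effect of day 1 differed by -3.85 for Ryr3. Both genes are at trace level, and the Ryr1 call was lost in 17 of 24 alternatives.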

How the results depend on the processing

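Over the alternatives run, Pln, Atp2a2, Casq2 and Casq1 kept their call and direction in 18 of 18 for 7d-MI + 3 against 7d-SHAM + 3, and Pln and Casq2 in 27 of 27 for the difference between the ages. In 7d-MI + 3 against 7d-SHAM + 3, Ryr2 lost its call in 9 of 18 (adjusted p up to 0.16) and Slc8a1 in 6 of 18, and 4 to 5 members were called with 1 library left out, against 6. For 1d-MI + 3 against 1d-SHAM + 3 the 2 called members became 4 without a filter, 4 with limma-voom, 0 with the 2 groups alone, 5 with shams 3 and 4 of 1d-SHAM + 3, 1 with shams 1 and 2, and 2 to 5 with a library left out. For the shams at 3 days, 5 became 3 with limma-voom, 1 with shams 3 and 4, and 2 to 5 with a library left out. With a library left out, 5 to 7 members were called between the MI groups at 3 days and 2 to 4 for the difference between the ages. At 21 days the count of 0 became 2 (DESeq2) and 0 to 2 (a library left out, 2 without replicate 1 of 7d-SHAM + 21) for MI on day 7, 1 (no filter), 1 (DESeq2) and 1 (2 groups alone) for MI on day 1, and 1 (DESeq2) between the MI groups. For the difference between follow-ups of day 7, 1 became 2 (TMM with the top 20 genes left out), 2 (no filter), 2 (DESeq2), 0 (limma-voom), 0 (background subtracted), 0 (without libraries over 50% ribosomal RNA) and 0 to 2 (a library left out). For that of day 1, 1 became 3 (limma-voom), 2 (shams 3 and 4), 0 (shams 1 and 2) and 0 to 2 (a library left out). With a library left out no ratio could reach the smallest exact p of the full groups, and 0 ratios did at 3 days. The Casq2 to Ryr2 difference of day 7 lay between -0.26 and 0.35 with a library left out, 0.35 without replicate 3 of 7d-MI + 3. The Slc8a1 difference between the ages lay between -0.22 and 0.040 with a library left out, and was 0.22 with shams 3 and 4. These counts have no share over all genes beside them, and causes of the changes were not tested.

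The animal numbers at 21 days do not mark shared animals, since each group had its own operation and name prefix. Deviations from the group means correlated between same-numbered libraries at -0.40 to 0.43. Between differently numbered libraries they correlated at -0.61 to 0.54. With so few libraries in a group this check cannot exclude a shared batch. With the number as a replicate block 0 members were called in each of the 5 comparisons. The 3-day labels carry no number to pair on.

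Few libraries, ribosomal RNA at 21 days and a background that differed between groups limit Ryr1, Ryr3, Atp2a1 and Sln most.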
